A study of Homo sapiens with 4 samples.

Results

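The NF-kB genes described here were CARD10, BCL10, MALT1, ICAM1, NFKB1, NFKB2, RELA, RELB, NFKBIA and TNFAIP3, taken by symbol from the count table. All 10 were found among its 16839 gene rows, and all passed the filter on low counts that left 14546 genes for testing. CARD10 and ICAM1, at 3 to 5 counts per shNull library, passed it only through the shSETD8 libraries. The set joins the signalling route from CARD10 to the NF-kB subunits with ICAM1, a gene that NF-kB is known to switch on. CARD10 and ICAM1 were picked because they differed between the groups in earlier work on these same counts. Differences of the 10 genes between the groups are therefore given as a description, and no test on them is offered as support.

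The cells were D458, an established medulloblastoma line, and messenger RNA was sequenced from 2 libraries per group. The shNull group carried a non-targeting short hairpin RNA and is labelled as wild type for SETD8. The shSETD8 group carried a hairpin against SETD8, a methyltransferase of histone H4, and is labelled as an 80% knockdown. All 4 libraries came from cells transduced with lentivirus and selected for 14 days in 1 µg/mL puromycin. The protocol speaks of separate clones for each group, so differences between clones cannot be told apart from those between libraries or groups. Several hairpins against the gene are listed, without saying which one a given clone received.

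Total counts per library ran from 40908334 to 52627366. SETD8 was at 34.7% and 65.5% of the shNull mean in shSETD8 replicates 1 and 2, so the library labels held in direction but the knockdown was uneven. The markers of the line fixed for checking its identity summed to 6479.5 and 6919 CPM (counts scaled to the normalised library size) in shNull and to 6448 and 6552 CPM in shSETD8. Of those 11 markers, 10 were in the table, and MYC and OTX2, which made up most of the sum, had at least 110242 and 96389 counts in every library. The sum says little of rarer markers: STMN2 ran from 52 to 519 counts and SYP from 4862 to 10508. Both shSETD8 libraries lay above shNull for 1 marker and below for 3, where 22.9% and 22.4% of all tested genes did.

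NF-kB is a family of dimeric transcription factors held in the cytoplasm by IkB proteins. CARD10 is a scaffold of cells outside the blood lineages that, after protein kinase C signalling from certain surface receptors, binds BCL10 and the protease MALT1. This assembly activates the IkB kinases, IkB is degraded, and the freed dimers switch on genes for adhesion molecules, cytokines and their own inhibitors. ICAM1 is among the best known of these targets, as are NFKBIA and TNFAIP3, which encode brakes on the pathway.

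CARD10 and ICAM1 were nearly silent in shNull and detectable in both shSETD8 libraries, while the other 8 genes differed little by comparison. CARD10 was 19.4-fold and ICAM1 18.3-fold higher by group means, whereas the group means of the other 8 lay between 0.954-fold and 1.54-fold of shNull. The partners of CARD10, the NF-kB subunit genes and the feedback genes were already transcribed in shNull. A bulk library cannot tell apart a few cells with much of a transcript from many cells with little of it.

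CARD10 had 3 counts in each shNull library, and 73 and 65 counts in shSETD8 replicates 1 and 2. In CPM it stood at 0.0680 and 0.0722 in shNull and at 1.39 and 1.33 in shSETD8. The shSETD8 libraries were alike and lay far above both shNull libraries. The mean was 0.0701 ± 0.00297 CPM for shNull and 1.36 ± 0.0431 CPM for shSETD8 (SD, n = 2 each). Summed over each group and scaled to library size, the count ratio was 19.5, with an exact 95% interval of 8.72 to 54.0 that covers counting error only. The log2 fold change was 4.23 ± 0.43 (SE) in edgeR's fit across all genes, and between 4.19 and 4.27 with any 1 library left out.

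ICAM1, the adhesion molecule that binds leukocyte integrins, had 5 and 3 counts in the shNull pair, against 49 and 120 counts in the shSETD8 pair. Its levels were 0.113 and 0.0722 CPM across shNull, beside 0.934 and 2.46 CPM across shSETD8. Both shSETD8 libraries lay above both shNull libraries, and replicate 2 held more than replicate 1, unlike CARD10. The mean was 0.0927 ± 0.0291 CPM for shNull and 1.70 ± 1.08 CPM for shSETD8 (SD, n = 2 each), and the count ratio was 17.9 (exact 95% interval 8.87 to 42.1, counting error only). The log2 fold change was 4.15 ± 0.69 (SE). It was 3.29 without shSETD8 replicate 2 and 4.68 without shSETD8 replicate 1.

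**Figure D1:**
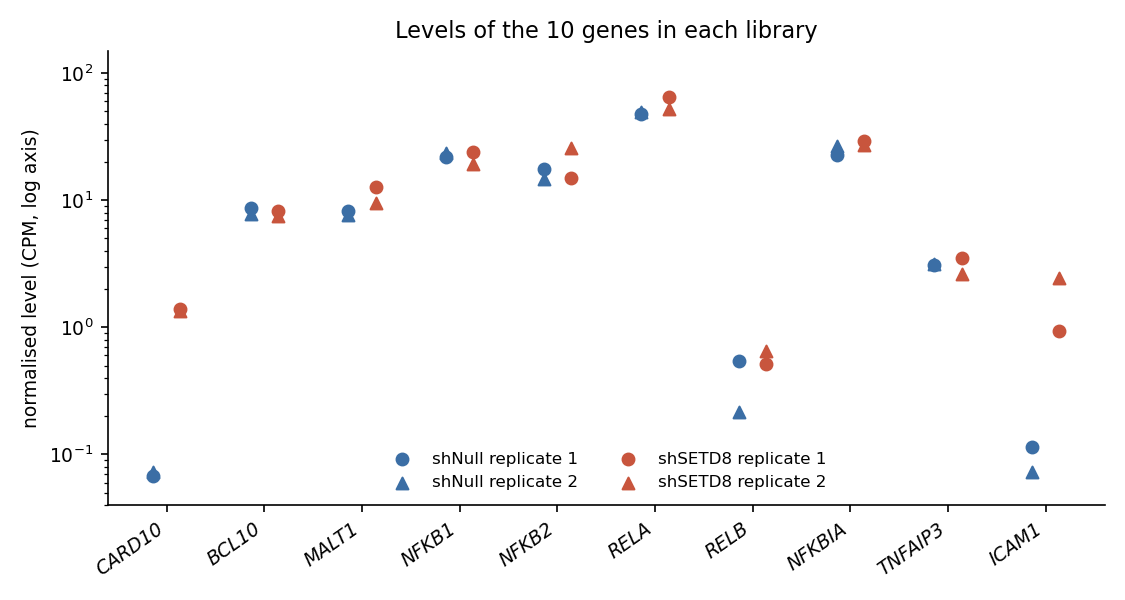
Normalised level of each gene in CPM on a log axis, with 1 point per library. CARD10 and ICAM1 separate the groups widely, while for the other 8 genes the points of shNull and shSETD8 lie close together or interleave.

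The start regions of CARD10 and ICAM1 are shown because these are the 2 genes with the widest gap between the groups. The sequences are from RefSeq on GRCh38.p14 and run from 250 bases to 1 base before the annotated start, on the strand of the gene. Capitals mark matches to GGNNNTTCC, a short form of the motif that NF-kB dimers bind, searched on both strands; a match can fall on both strands at the same letters.
ICAM1 (chr19:10270870-10271119, + strand): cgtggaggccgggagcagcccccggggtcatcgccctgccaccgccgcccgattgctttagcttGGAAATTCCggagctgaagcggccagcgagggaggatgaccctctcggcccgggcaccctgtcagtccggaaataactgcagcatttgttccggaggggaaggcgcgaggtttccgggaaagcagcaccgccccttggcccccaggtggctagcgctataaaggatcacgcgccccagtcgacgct
CARD10 (chr22:37519416-37519665, - strand): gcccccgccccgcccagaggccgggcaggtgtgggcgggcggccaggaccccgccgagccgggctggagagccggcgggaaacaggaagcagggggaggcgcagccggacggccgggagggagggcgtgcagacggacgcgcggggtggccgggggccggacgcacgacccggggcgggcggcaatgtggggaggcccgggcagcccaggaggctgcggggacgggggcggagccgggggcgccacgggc

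ICAM1 had 1 match, which begins 186 bases before the start and reads GGAAATTCC on the gene's strand and GGAATTTCC on the other. CARD10 had 0 matches in its window of 300 bases (250 before and 50 after the start), which says only that these letters are not there. Its window was 83.3% G and C, and that of ICAM1 64.7%, where the median over windows of tested genes was 64.3%. For comparison, a stretch with a match is shown for 4 other genes of the set. That of NFKB2 belongs to the start window with the most matches, and another of its windows holds a match 20 bases before its start.
NFKBIA (chr14:35404791-35404850, - strand): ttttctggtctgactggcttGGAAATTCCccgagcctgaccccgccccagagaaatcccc
TNFAIP3 (chr6:137867172-137867231, + strand): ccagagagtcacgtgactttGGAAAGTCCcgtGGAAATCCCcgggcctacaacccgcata
NFKB1 (chr4:102501291-102501350, + strand): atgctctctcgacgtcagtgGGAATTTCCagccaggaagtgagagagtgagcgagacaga
NFKB2 (chr10:102394451-102394510, + strand): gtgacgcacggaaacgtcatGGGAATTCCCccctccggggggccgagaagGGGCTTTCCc

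Of the 10 genes, 9 had at least 1 start window in the RefSeq table, RELB being the other, and NFKB1, NFKB2 and RELA had more than 1. A match was found for 7 of these 9: BCL10, MALT1, ICAM1, NFKB1, NFKB2, NFKBIA and TNFAIP3. In MALT1 it lay after the start. Over all windows of that length 20.1% held a match, and over those of tested genes 21.9%. These shares are per window, while the 7 of 9 are genes with a match in any window, so they are not directly comparable. A match is a description of the letters and shows no binding. TNFAIP3 held 2, and CARD10 and RELA held none.

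Among the partners of CARD10, BCL10 did not separate the groups. BCL10, the adaptor that CARD10 recruits, was at 8.63 and 7.79 CPM among shNull libraries, versus 8.28 and 7.56 CPM among shSETD8 libraries, with overlapping groups and a log2 fold change of -0.05 ± 0.18 (SE). Its sign turned without shNull replicate 1 (0.022) and without shSETD8 replicate 2 (0.010). An antisense gene overlaps BCL10 and had 3 to 8 counts per library, against 324 to 434 for BCL10. Whether the counting used strand is not stated.

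MALT1, the protease of the assembly, was at 8.22 and 7.60 CPM in the shNull pair, against 12.8 and 9.50 CPM in the shSETD8 pair. Both shSETD8 libraries were the higher ones, replicate 1 more so. The log2 fold change was 0.49 ± 0.21 (SE), 0.26 without shSETD8 replicate 1 and 0.69 without shSETD8 replicate 2.

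The NF-kB subunit genes showed small and mixed differences. RELA, which encodes the main activating subunit, was at 47.9 and 49.4 CPM across shNull, beside 64.3 and 51.8 CPM across shSETD8. Both shSETD8 libraries were higher, replicate 2 only slightly, and the log2 fold change was 0.26 ± 0.14 (SE). It was 0.40 without shSETD8 replicate 2 and 0.088 without shSETD8 replicate 1. NFKB1, whose product is processed to the usual partner of RELA, was at 21.9 and 23.5 CPM among shNull libraries, versus 24.2 and 19.2 CPM among shSETD8 libraries. The shSETD8 libraries lay on either side of shNull, with a log2 fold change of -0.07 ± 0.16 (SE) that became 0.088 without shSETD8 replicate 2.

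NFKB2 and RELB encode the pair used by the non-canonical branch. NFKB2 was at 17.7 and 14.7 CPM in the shNull pair, against 14.9 and 26.0 CPM in the shSETD8 pair. Only shSETD8 replicate 2 stood above shNull, and the log2 fold change of 0.33 ± 0.29 (SE) was -0.12 without that library and 0.68 without shSETD8 replicate 1. RELB was rare, with 24 and 9 counts across shNull, beside 27 and 32 counts across shSETD8. Its groups overlapped in CPM (0.544 and 0.216 against 0.515 and 0.655). Its log2 fold change of 0.61 ± 0.54 (SE) rested on the low shNull replicate 2, moving to 1.42 when shNull replicate 1 was left out and to 0.10 when replicate 2 was left out instead.

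The feedback genes, which are both targets and brakes of the pathway, stayed within a narrow range. NFKBIA, encoding the inhibitor IkB-alpha, was at 22.7 and 26.7 CPM among shNull libraries, versus 29.1 and 27.3 CPM among shSETD8 libraries, a log2 fold change of 0.19 ± 0.14 (SE). Both shSETD8 libraries were higher, replicate 2 by little over shNull replicate 2. TNFAIP3, which encodes the ubiquitin-editing enzyme A20, was at 3.10 and 3.17 CPM in the shNull pair, against 3.53 and 2.64 CPM in the shSETD8 pair. Its shSETD8 libraries bracketed shNull, and the log2 fold change of -0.02 ± 0.27 (SE) became 0.17 without shSETD8 replicate 2. A noncoding gene overlaps TNFAIP3 and had 5 to 14 counts per library.

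**Figure D2:**
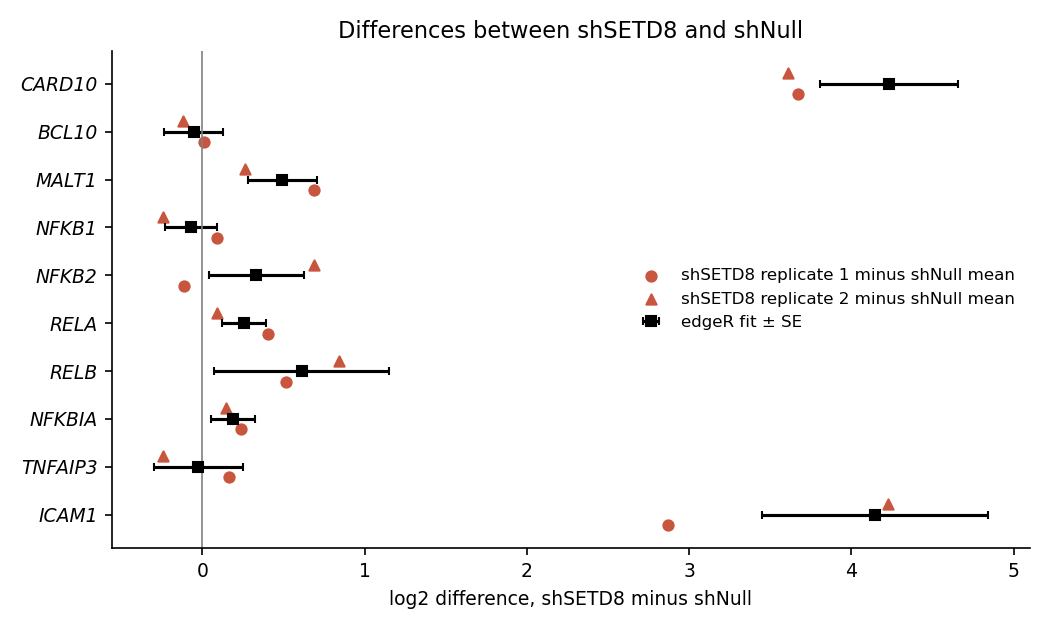
Log2 difference of shSETD8 minus shNull for each gene. Squares with bars give edgeR's fold change ± SE from all 4 libraries, and coloured points give each shSETD8 library against the shNull mean with a prior count of 2, which pulls low genes such as CARD10 towards 0. For BCL10, NFKB1, NFKB2 and TNFAIP3 the coloured points lie on opposite sides of 0.

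Over the 10 genes, both shSETD8 libraries lay above both shNull libraries for 5 genes (CARD10, ICAM1, MALT1, RELA and NFKBIA), below for 0, and overlapped for 5. Over all tested genes the groups did not overlap for 45.3%, with 22.9% above and 22.4% below. edgeR's quasi-likelihood test called 0 of the 10 at an adjusted p under 0.05, and 0% of all tested genes; 2 of the 10 had an unadjusted p under 0.05, as did 10.8% of all. DESeq2 called CARD10 and ICAM1, against 1.94% of the genes it tested. Since these genes were chosen on this contrast, nothing is read from those counts. In DESeq2 they were called without shSETD8 replicate 1 but not without either shNull library, and without shSETD8 replicate 2 its filter on low means left them with no adjusted p. With 1 library left out, edgeR's log2 fold changes ran from 4.19 to 4.27 for CARD10 and from 3.29 to 4.68 for ICAM1. They ran from 0.26 to 0.69 for MALT1, from 0.088 to 0.40 for RELA and from -0.12 to 0.68 for NFKB2.

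Level per kilobase of exon allows the genes to be set beside each other. In shNull the order was RELA (14.4 CPM per kilobase), NFKBIA (13.0), NFKB2 (4.399), NFKB1 (4.12), BCL10 (2.64), MALT1 (0.845), TNFAIP3 (0.663), RELB (0.165), ICAM1 (0.0285) and CARD10 (0.0164). NFKB2 and NFKB1 overlapped between their libraries, and the other neighbours in that order did not. In shSETD8 the order from RELA to TNFAIP3 was the same, and ICAM1 (0.522) and CARD10 (0.318) came before RELB (0.254). There RELA overlapped with NFKBIA, NFKB2 with NFKB1, TNFAIP3 with ICAM1, and ICAM1 with CARD10.

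The other measured CARD scaffolds were present in both groups. CARD14, a relative known from skin, was at 0.686 and 0.602 CPM per kilobase in shNull and at 0.577 and 0.680 in shSETD8. CARD9, known from myeloid cells, was at 0.629 and 0.612 CPM per kilobase in shNull and at 0.485 and 0.280 in shSETD8. CARD10 was thus below both in every library except that it passed CARD9 in shSETD8 replicate 2, where it stood at 0.311.

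The nearest measured genes on each side were compared with CARD10 and ICAM1, a choice made after the values were seen. On chromosome 22, GGA1, near CARD10, had a log2 fold change of -0.03 ± 0.10 (SE), at 54.7 and 54.5 CPM across shNull, beside 54.9 and 52.4 CPM across shSETD8. The other 5 of the 6 neighbours had at most 109 counts in any library. C1QTNF6 had 11 and 3 counts among shNull libraries, versus 24 and 37 counts among shSETD8 libraries, and CDC42EP1, next to CARD10, had 0 and 0 against 11 and 1. IL2RB had 0 and 1 against 4 and 11. In these 3 genes both shSETD8 libraries lay above shNull, on few reads, where 22.9% of all tested genes did so. The groups overlapped for MFNG (3 and 1 counts against 4 and 2) and SH3BP1 (22 and 27 against 12 and 109).

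On chromosome 19, ICAM1 sits next to its relatives ICAM4 and ICAM5. ICAM4, a red cell antigen, was at 1.86 and 0.842 CPM in the shNull pair, against 1.14 and 1.11 CPM in the shSETD8 pair, so its groups overlapped. ICAM5, the neuronal member of the family, was at 13.0 and 12.6 CPM across shNull, beside 10.6 and 28.96 CPM across shSETD8. As with ICAM1 and NFKB2, shSETD8 replicate 2 held the most, but ICAM5 in replicate 1 lay below shNull. On the other side, MRPL4 was at 129 and 137 CPM among shNull libraries, versus 145 and 140 CPM among shSETD8 libraries. Both its shSETD8 libraries lay above shNull, as for 22.9% of all tested genes. S1PR2 had 8 and 10 counts across shNull, beside 8 and 29 across shSETD8, a log2 fold change of 0.81 ± 0.75 (SE). DNMT1 was at -0.12 ± 0.10 on that scale and ZGLP1 at -0.01 ± 0.44. The groups overlapped for S1PR2, DNMT1 and ZGLP1.

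Genes with other roles in the pathway were described by lists written with earlier results of these data known. Over the 8 lists, 99 of 154 genes were tested, 51 with a log2 fold change above 0 and 48 below, and their median was 0.01, as over all tested genes. edgeR's quasi-likelihood test called 0 of them (10 had an unadjusted p under 0.05), and DESeq2 called 0 higher and 1 lower, where it called 0.928% of all genes higher and 1.02% lower.

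The receptors and adaptors at the top of the pathway showed a median of 0.09 on the log2 scale, with 7 of 10 tested genes above 0. TNFRSF1A, the main receptor for tumour necrosis factor, was at 0.430 and 0.433 CPM in the shNull pair, against 0.820 and 1.58 CPM in the shSETD8 pair, a log2 fold change of 1.47 ± 0.46 (SE). TNFRSF12A, the receptor for TWEAK, was at 0.63 ± 0.27 and TRADD, which docks onto TNFRSF1A, at 0.47 ± 0.21. TNFRSF11A, the receptor for RANK ligand, lay the other way at -0.89 ± 0.23. In all 4 genes, named for the lowest p in the list, the groups did not overlap, and none was called by either tool. Of the 10 tested genes 4 lay above and 3 below, where 22.9% and 22.4% of all tested genes did.

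Among the partners of the CARD scaffolds, 6 of 12 tested genes were above 0, with a median log2 fold change of 0.00. Protein kinase C genes were split: PRKCZ (1.29 ± 0.51) and PRKCD (0.36 ± 0.19) lay above 0, and PRKCE (-0.29 ± 0.16) and PRKCI (-0.14 ± 0.09) below. RBCK1, part of the linear ubiquitin ligase, was at 0.27 ± 0.13. PRKCZ was highest in shSETD8 replicate 2 (3.09 CPM), then replicate 1 (1.26), with shNull at 0.815 and 0.962 CPM.

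The kinase list held the DESeq2 call. MAP3K1, a kinase upstream of JNK and of the IkB kinases, was called lower by DESeq2, at 39.4 and 38.6 CPM without the knockdown and 25.6 and 27.6 CPM with it (adjusted p = 0.0188), with a log2 fold change of -0.55 ± 0.11 (SE) in edgeR and an edgeR adjusted p of 0.362. With 1 library left out, its DESeq2 adjusted p was 0.00578 without shSETD8 replicate 2, 0.0505 without shSETD8 replicate 1 and 1.00 without either shNull library. The catalytic IkB kinase subunits, named for their role after their values were seen, had log2 fold changes of 0.31 ± 0.13 (IKBKB) and 0.07 ± 0.14 (CHUK). Of 14 tested genes 6 were above 0, with a median of -0.02.

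The list of remaining REL and IkB genes also held NKIRAS1, NKIRAS2 and COMMD1. Its median was 0.04 on the log2 scale, with 5 of 9 genes above 0. BCL3, a nuclear IkB protein, was at 0.63 ± 0.35, NFKBIB at 0.27 ± 0.18, COMMD1 at 0.22 ± 0.17 and REL at -0.32 ± 0.26. The deubiquitinases and other brakes also had a median of 0.04, with 7 of 12 above 0 and a range from -0.10 to 0.42. TNIP2, a partner of A20, was at 0.21 ± 0.13, TAX1BP1 at 0.17 ± 0.12, OTUD7B at 0.15 ± 0.15 and USP18 at 0.42 ± 0.44.

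Other NF-kB target genes had no common direction. Of 44 listed, 30 were in the table and 22 were tested, 11 above and 11 below 0 around a median of -0.01 on the log2 scale. Both shSETD8 libraries lay above shNull in 2 of these 22, IL32 and MAP3K8, and below in 6. Over all tested genes 22.9% lay above and 22.4% below. IL32, a cytokine gene, was at 16.9 and 23.3 CPM in shNull, at 166 CPM in shSETD8 replicate 1 and at 23.5 CPM in replicate 2, so its log2 fold change of 2.24 ± 0.88 (SE) rested on 1 library. MAP3K8, a kinase gene, was at 3.33 and 4.402 CPM across shNull, beside 5.13 and 8.62 CPM across shSETD8 (0.83 ± 0.33).

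PTX3 and CD44 lay in the opposite direction to ICAM1. CD44, a hyaluronan receptor, had 31 and 15 counts among shNull libraries, versus 0 and 6 counts among shSETD8 libraries, and PTX3, a secreted pattern recognition protein, had 26 and 21 against 3 and 9. The cytokines TNF and CXCL8 had 1 to 4 and 2 to 9 counts per library and were not tested. The median of the list was -0.25 without shSETD8 replicate 2.

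**Figure D3:**
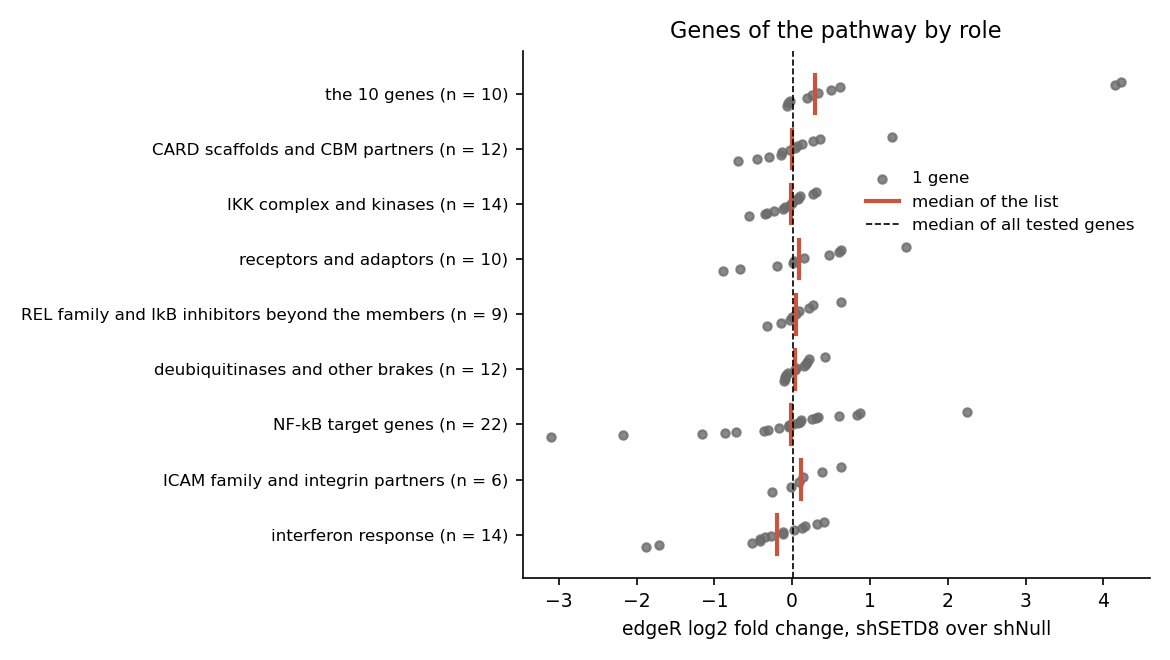
Log2 fold changes (edgeR, shSETD8 over shNull) of the tested genes in each list, with the list's median in red and the median of all tested genes as a dashed line. CARD10 and ICAM1 are the 2 points at 4.15 and 4.23 in the top row, and the medians of the lists below it lie between -0.20 and 0.12.

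The integrin partners of ICAM1 were barely detected. ITGAL and ITGB2, the subunits of its main leukocyte receptor, had 6 to 14 and 0 to 7 counts per library. RDX, a linker of membrane proteins to actin, was at 0.15 ± 0.08 on the log2 scale, and ICAM3 at 0.38 ± 0.23, with 5.89 and 6.06 CPM in the shNull pair, against 6.64 and 8.93 CPM in the shSETD8 pair. ICAM5 was at 0.63 ± 0.46 and ICAM4 at -0.26 ± 0.46.

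ICAM1 is also known to respond to interferon, and genes of that response were described too. STAT3, which acts downstream of interleukin 6, was at 39.7 and 40.9 CPM across shNull, beside 54.3 and 52.9 CPM across shSETD8, a log2 fold change of 0.41 ± 0.10 (SE), and STAT2 was at 0.33 ± 0.16 on that scale. The interferon-induced genes GBP2 (-1.87 ± 0.55) and IFIT1 (-1.72 ± 0.68) lay below 0. The list's median was -0.20, with 5 of 14 tested genes above 0, and none was called by either tool.

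Markers of other cell types were read beside CARD10 and ICAM1, which epithelial and endothelial cells are known to express. Of 8 epithelial markers 7 were in the table, summing to 0.838 and 1.25 CPM among shNull libraries, versus 4.63 and 12.2 CPM among shSETD8 libraries. KRT8 and KRT18 made up most of the difference: KRT18 had 7 and 13 counts in the shNull pair, against 132 and 308 counts in the shSETD8 pair, and KRT8 had 3 and 0 against 67 and 220. Of these markers 3 were tested. DESeq2 called both keratins higher, where it called 0.928% of all genes higher, and edgeR's quasi-likelihood test called neither. EPCAM, CDH1, KRT7 and CLDN4 had 0 to 8 counts in every library, and ESRP1 20 to 59. The part of the keratin difference in the values of CARD10 and ICAM1 was not tested.

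Endothelial markers, 4 of 8 in the table, summed to 0.974 and 0.962 CPM across shNull, beside 1.79 and 1.23 CPM across shSETD8, with VWF and KDR at 0 to 5 counts. Immune markers, 5 of 10 in the table, summed to 9.13 and 9.07 CPM among shNull libraries, versus 6.96 and 9.58 CPM among shSETD8 libraries, with CD14 at 2 to 5 counts. Fibroblast markers, 6 of 8 in the table, summed to 71.1 and 61.4 CPM in the shNull pair, against 41.4 and 50.8 CPM in the shSETD8 pair. They did not move together. The groups did not overlap for any of the 4 tested members, nor for 45.3% of all tested genes. COL1A1 (1.16 ± 0.27) and PDGFRB (0.55 ± 0.24) lay above 0 on the log2 scale, and LUM (-1.11 ± 0.25) and DCN (-0.75 ± 0.23) below. DESeq2 called LUM lower, where it called 1.02% of all genes lower, and edgeR's quasi-likelihood test called none of the 4.

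The genes whose levels followed those of CARD10 and ICAM1 most closely over the 4 libraries were then listed. Likeness was the root mean square difference of centred log2 CPM, over 13609 tested genes with a mean of at least 20 counts. The log2 CPM used a prior count of 2, which pulls differences of low genes such as CARD10 towards 0. CARD10 and ICAM1 themselves reached such a mean only through shSETD8, as did TTR, PCDH15, SLC16A3 and KRT18 below. For CARD10 the 3 nearest were TTR (0.35), which encodes the carrier transthyretin, the kinesin KIF1A (0.35) and the cadherin PCDH15 (0.37). For ICAM1 they were the lactate transporter SLC16A3 (0.28), the cone phosphodiesterase subunit PDE6H (0.43) and the keratin KRT18 (0.48). All 3 genes nearest to ICAM1 were higher in shSETD8 replicate 2 than in replicate 1, with SLC16A3 at 7.68 and 1.89 CPM. The genes nearest to CARD10 were less alike between the shSETD8 libraries than CARD10 was. Replicate 2 minus replicate 1 was 0.55 for TTR, -0.84 for KIF1A and 0.27 for PCDH15 in log2 units, against -0.06 for CARD10. The edgeR log2 fold change of KIF1A was 3.38, against 4.23 for CARD10. CARD10 and ICAM1 differed from each other by 0.53 on this measure, which made ICAM1 the gene at rank 6 in likeness to CARD10. Both were chosen for being higher in shSETD8, and with 4 libraries such likeness is a description.

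**Figure D4:**
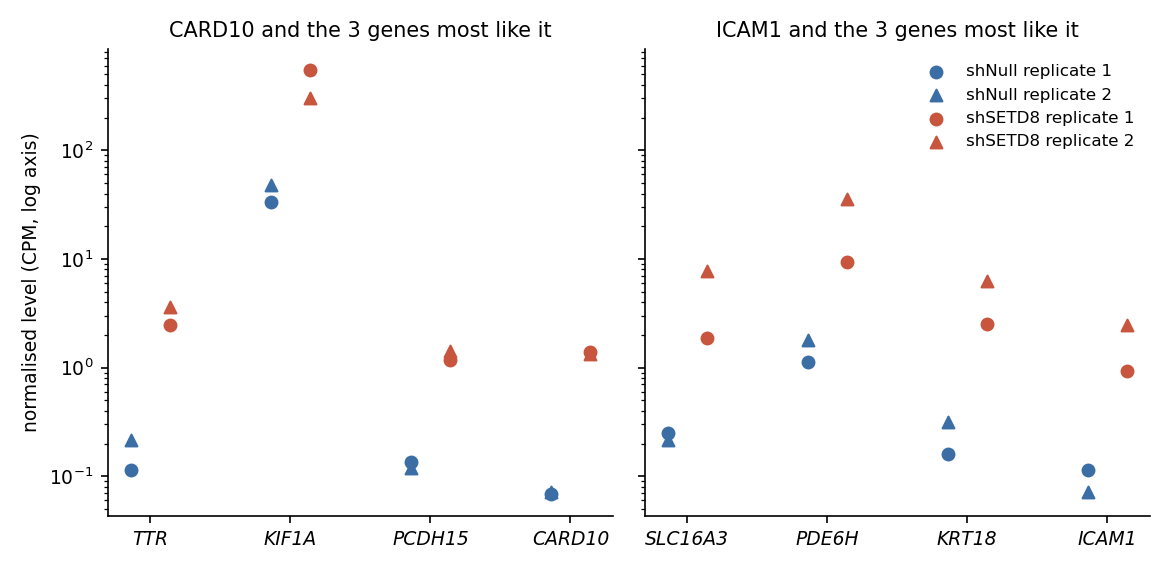
Level in CPM on a log axis of CARD10 (left) and ICAM1 (right), each beside the 3 genes most like it, with 1 point per library. Among the genes on the right the shSETD8 libraries lie apart, replicate 2 above replicate 1, while CARD10 has its shSETD8 points together at 1.39 and 1.33 CPM.

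The libraries of a group differed more in shSETD8 than in shNull. For genes averaging at least 100 counts, the SD of log2 differences between libraries was 0.21 within shNull and 0.51 within shSETD8. CARD10, ICAM1 and RELB have fewer counts and are not among those genes. For RELB, shNull replicate 2 minus replicate 1 was -1.18 in log2 units. Between the shSETD8 libraries, replicate 2 minus replicate 1 was -0.06 for CARD10 and 1.36 for ICAM1.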

How the data were processed

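The authors deposited 1 table of whole-number counts per gene, not normalised, with a column per library. The submitters' processing notes name STAR 2.4.0.1, DESeq 1.32.0, Trimmomatic 0.36 and FastQC 0.10.1, with build hg19. No source used here states the counting program, annotation or strand setting. Another 2 columns matched no sample and were not used.

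The members and gene lists were chosen with earlier results of these data known. Groups follow the treatment label. Replicates differed by more than sampling noise (chi-square per gene 16.3 in shNull and 71.0 in shSETD8). edgeR 4.0.16 (R 4.3.3) was fitted across the table with TMM, filterByExpr, quasi-likelihood F tests and Benjamini-Hochberg adjustment. Standard errors (SE) were taken as |log2 fold change| divided by sqrt(F). DESeq2 1.42.0 was run on all rows with its own filter. CPM used TMM library sizes, and values per kilobase used the union of exons in GENCODE v29 (GRCh38, for length only). Named genes were the 10, SETD8, per list those called or else the 4 with the lowest p, and the 3 nearest to CARD10 and to ICAM1. Genes outside this rule were chosen for their role or place after their values were seen. They were CARD9, CARD14, PRKCI, IKBKB, CHUK, NKIRAS1, NKIRAS2, TNF, CXCL8, integrins, chromosomal neighbours, overlapping genes and further cell type markers. The sequence motif was chosen after the data were seen. The steps were tested on simulated counts.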

Additional observations from a re-analysis of the deposited data

How the results depend on the processing

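With DESeq2 the number of genes called was 283 and with the edgeR likelihood ratio test 247, in place of 0, and 2 of the 10 genes were called with each. Leaving out 1 library in edgeR gave 0 to 2550 calls over all genes and 0 to 4 among the 10. The zeros came without either shNull library, and 1418 and 2550 calls came without shSETD8 replicate 1 or 2. DESeq2 with 1 library left out, chosen after seeing the data, gave 20 and 51 calls without shNull replicate 1 or 2 and 754 and 1548 without shSETD8 replicate 1 or 2. Among the 10 it called CARD10, ICAM1 and NFKB2 without shSETD8 replicate 1, only RELA without replicate 2, and no gene without either shNull library. The single library left in a group is given the spread of the other. The cause of these shifts was not tested.

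The median of the NF-kB target genes ran from -0.25 to 0.070 with 1 library left out in edgeR, and from -0.18 to 0.06 in DESeq2. It was 0.10 with no filter on low counts, where more genes entered. Signs turned with 1 library left out for BCL10 (-0.13 to 0.022, and 0.010 without shSETD8 replicate 2), NFKB1 (-0.25 to 0.088), NFKB2 (-0.12 to 0.68) and TNFAIP3 (-0.25 to 0.17). In DESeq2 the turned values were 0.022 and 0.014 for BCL10, 0.092 for NFKB1, -0.12 for NFKB2 and 0.17 for TNFAIP3. The other 6 genes kept their sign under every alternative run, as did MAP3K1. No paired analysis was possible because the replicate numbers are only record order. Counts of 3 to 5 per shNull library limit CARD10 and ICAM1.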
